A study of Rattus norvegicus with 39 samples.

Results

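Collagens, laminins, integrins and metalloproteinases make up, bind and cut the extracellular matrix, and they were examined here in hippocampal CA1 of rats with different exposure to corticosterone. The members were all probe sets of the array whose only gene symbol belongs to a collagen, a laminin chain, an integrin alpha or beta subunit, a matrix metalloproteinase (Mmp), a tissue inhibitor of metalloproteinases (Timp) or an Adam protein, or is Fn1, Sparc, Bgn, Ncan or Vcan. They numbered 86 of 8740 probe sets, for 62 of the 4736 genes with a probe set of 1 symbol. By family there were 22 probe sets of collagens, 7 of laminins, 14 of the single matrix genes, 11 of integrin alpha subunits, 5 of integrin beta subunits, 13 of Mmps, 4 of Timps and 10 of Adams.

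The study measured 39 male Fischer 344 rats, 1 Affymetrix array per animal, all killed at 18 months of age after 3 months with a pellet under the skin. Injected animals (n = 10) were adrenalectomized, carried a 25 mg corticosterone pellet and received 5 mg of corticosterone a day by injection on 4 days shortly before death. IntermediateCORT animals (n = 9) were adrenalectomized and carried a 200 mg corticosterone pellet. LowCORT animals (n = 10) were adrenalectomized and carried a 25 mg corticosterone pellet. Sham animals (n = 10) were not adrenalectomized and carried an inert pellet. Animals with the low pellet drank saline with sucrose throughout, so that fluid and dose cannot be told apart in a comparison with the other groups, nor can surgery and dose in a comparison with Sham. The tissue was a dissected block, in which fewer cells of a type and less RNA per cell cannot be told apart.

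Fibrillar collagens form the fibres of connective tissue and in the brain come mainly from the meninges and from cells along vessels. Laminins, with type IV collagen, build the basement membrane around vessels, and integrins are the paired receptors through which cells hold on to it. Metalloproteinases cut matrix proteins, and Timps block them. Adams are membrane proteins, and some of them are proteases that shed proteins from the cell surface. Glucocorticoids are known to lower collagen synthesis in skin and other connective tissues.

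Promoter sequences were looked up for Mmp14, Col1a1, Col3a1, Col5a2 and Col1a2. They are shown for the last pair, both fibrillar collagens, because Mmp14, Col1a1 and Col3a1 had no entry. Col5a2 came nearest to a difference between LowCORT and Sham in its family. Col1a2, which pairs with Col1a1 in type I collagen, is set against a probe set of Col1a1 below. Each window runs from 250 bases before to 50 after the gene's start, 5′ to 3′ on the gene's strand, from RefSeq on assembly GRCr8. Of the 62 member genes, 42 had an entry. Capitals mark matches to 4 motifs searched on both strands: CCAAT, a box common in collagen promoters, TATAAA, the TATA box, AGAACA, an arm of the glucocorticoid response element, and TGANTCA, the AP-1 site.
Col5a2 (chr9:55090102-55090401, minus strand): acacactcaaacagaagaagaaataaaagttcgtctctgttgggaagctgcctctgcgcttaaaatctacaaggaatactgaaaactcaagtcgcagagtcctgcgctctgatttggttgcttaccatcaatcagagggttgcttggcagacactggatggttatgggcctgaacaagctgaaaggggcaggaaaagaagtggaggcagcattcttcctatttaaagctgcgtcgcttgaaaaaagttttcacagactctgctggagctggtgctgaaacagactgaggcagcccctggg
Col1a2 (chr4:33518307-33518606, plus strand): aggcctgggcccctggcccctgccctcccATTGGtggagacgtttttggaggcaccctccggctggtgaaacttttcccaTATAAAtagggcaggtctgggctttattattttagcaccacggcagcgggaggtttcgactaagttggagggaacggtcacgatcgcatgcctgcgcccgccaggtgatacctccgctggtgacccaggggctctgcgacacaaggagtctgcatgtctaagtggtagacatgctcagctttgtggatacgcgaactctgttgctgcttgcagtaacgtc

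The Col1a2 window held CCAAT on the opposite strand (written ATTGG, bases 30 to 34 of the window) and TATAAA at bases 81 to 86, and the Col5a2 window held none of the 4 motifs. AGAACA stood in 9 of the 42 member promoters (21.4%) and in 20.1% of all 27457 rat promoters of the same length. CCAAT stood in 10 (23.8%) and in 37.7% of all, TATAAA in 10 (23.8%) and in 14.3%, and TGANTCA in 6 (14.3%) and in 7.33%. These matches describe letters in a window and do not show binding.

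Values below are deposited log2 expression values, and differences are log2 differences from limma, two-sided, adjusted by the Benjamini-Hochberg method over all 6118 probe sets with a mean of at least 6.28. The word called is used for an adjusted p under 0.05. Of the 86 member probe sets, 52 passed this filter, for 39 genes, and 34 were dimmer. The filter used the mean over all 39 arrays. Array medians lay between 7.27 and 7.33. As a check that exposure differed, Sgk1, a kinase induced by glucocorticoids, averaged 8.05 ± 0.27 in Injected, 8.64 ± 0.47 in IntermediateCORT, 7.93 ± 0.17 in LowCORT and 9.43 ± 0.59 in Sham (SD), and it fell by 1.50 in LowCORT against Sham (limma adjusted p = 2.90e-07). Injected minus LowCORT was 0.12 for Sgk1 (95% interval -0.23 to 0.47, adjusted p = 0.883). Of 6 genes on a list for CA1 and other pyramidal neurons, which is not specific to CA1, 4 were on the array and 3 were tested. Their mean level was 9.82 in Injected, 10.02 in IntermediateCORT, 9.72 in LowCORT and 9.88 in Sham. Among their 5 probe sets, 1 of Calb1 was called lower in LowCORT against Sham and higher in IntermediateCORT against LowCORT. For Camk2a, 1 was called lower in Injected against IntermediateCORT. No marker on the list for neighbouring dentate granule neurons had a probe set with that symbol alone.

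Among the matrix and adhesion genes the share of calls was near that of the whole array. The moderated F test called 1 of 52 member probe sets, Mmp14, against 2.27% of all probe sets tested, and 5 members had an unadjusted p under 0.05 (9.62%, against 11.8% of all). LowCORT against Sham called 0 of 52 members by limma, where 1.68% of all were called, and 6 had an unadjusted p under 0.05 (11.5%, against 13.6% of all). IntermediateCORT against LowCORT called 0 members, where 2.14% of all were called, and 1 had an unadjusted p under 0.05 (1.92%, against 11.9% of all).

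The remaining comparisons had few calls over the whole array as well. Injected against IntermediateCORT called 1 member, Mmp14, which was higher, with 0.196% of all called and 0.114% called higher. In it 3 members had an unadjusted p under 0.05 (5.77%, against 11.4% of all). Injected against LowCORT called 0 members with 0.343% of all called, and 6 had an unadjusted p under 0.05 (11.5%, against 7.37% of all). Injected against Sham called 0 with 0.229% of all called, and IntermediateCORT against Sham called 0 with 0.0163% of all called. Each had 2 members with an unadjusted p under 0.05 (3.85%). Over all probe sets that share was 5.95% in Injected against Sham and 4.22% in IntermediateCORT against Sham.

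The median member difference was 0.04 for Injected minus IntermediateCORT (0.02 over all probe sets tested), 0.03 for Injected minus LowCORT (0.01) and 0.02 for Injected minus Sham (0.00). It was -0.01 for IntermediateCORT minus LowCORT (0.01), -0.03 for IntermediateCORT minus Sham (0.00) and -0.02 for LowCORT minus Sham (-0.01). The sign was positive for 42 of the 52 members in Injected minus IntermediateCORT, where 3476 of the 6118 probe sets were positive, and for 20 in LowCORT minus Sham, where 2882 were. The members varied little between animals, with a median within-group SD of 0.14 (0.16 over all probe sets tested). The 95% intervals of the differences were accordingly narrow, with a median of 0.13 on either side of the difference, and in each comparison at least 50 of the 52 lay inside ±0.5. Differences smaller than these intervals could not be told from 0 with this number of animals. The intervals are not adjusted for the number of probe sets, so larger differences could also go uncalled. Examples are Col5a2 at 0.28 in LowCORT minus Sham (limma adjusted p = 0.0584) and Mmp14 at 0.26 in Injected minus LowCORT (adjusted p = 0.133).

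**Figure D1:**
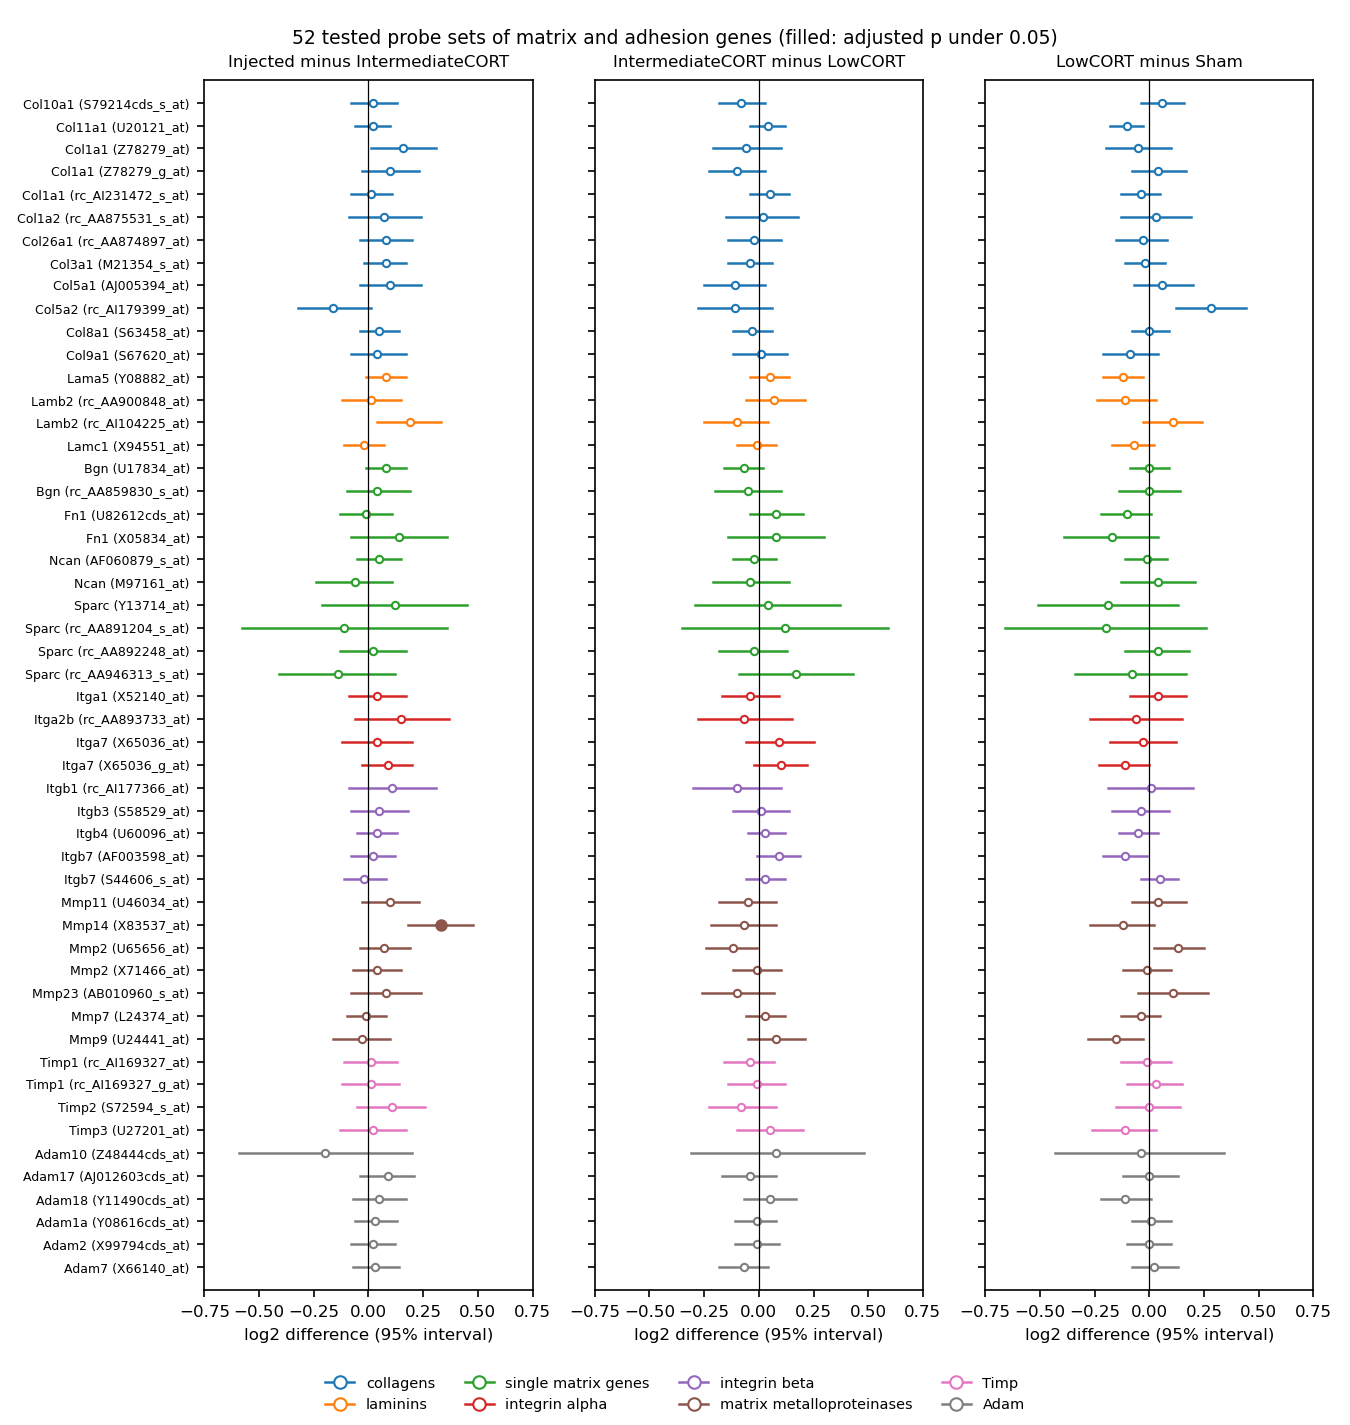
Log2 differences (horizontal axis) with 95% intervals for the 52 tested member probe sets (1 per line, coloured by family) in Injected minus IntermediateCORT, IntermediateCORT minus LowCORT and LowCORT minus Sham. The filled point at 0.33 in the left panel is Mmp14, the only call, and Col5a2 stands to the right of the other collagens in LowCORT minus Sham at 0.28.

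Among the collagens, 12 of 22 probe sets were tested, for 10 of 15 genes, and 0 were called in any of the 6 comparisons by limma. Col5a2, a minor chain that limits the width of type I fibres, had the smallest F test p of the family (F = 5.67, adjusted p = 0.0864). It ranged from 6.93 to 7.46 in Injected (median 7.32), from 7.19 to 7.69 in IntermediateCORT (median 7.52), from 7.23 to 8.00 in LowCORT (median 7.57) and from 7.07 to 7.51 in Sham (median 7.30). LowCORT animals reached the highest values and also spread the most, with an SD of 0.26, and all 4 ranges overlapped. The LowCORT minus Sham difference was 0.28 (SE 0.08, 95% interval 0.12 to 0.44, limma adjusted p = 0.0584), with 9 of 10 LowCORT animals above the Sham mean. It passed the threshold with array weights (0.31, adjusted p = 0.0214), with the position of the subject number within its group as a covariate (0.28, adjusted p = 0.0296) and with covariates for RNA or cDNA length (0.29, adjusted p = 0.0445). Leaving out any of 6 single animals, Sham 2, LowCORT 20, 22, 26 or 27, or Injected 37, also brought it below the threshold, at adjusted p of 0.0192 to 0.0452. Injected minus LowCORT was -0.27 (SE 0.08, adjusted p = 0.221), with 10 of 10 Injected animals below the LowCORT mean. IntermediateCORT minus Sham was 0.17 (SE 0.08, adjusted p = 0.998).

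Col5a1, the partner chain of Col5a2, had a difference of 0.06 between LowCORT and Sham (SE 0.07, adjusted p = 0.755). Col11a1, another chain of the group that sets fibre width, ranged in U20121_at from 6.38 to 6.55 in Injected, from 6.34 to 6.53 in IntermediateCORT, from 6.33 to 6.53 in LowCORT and from 6.32 to 6.67 in Sham. Its LowCORT minus Sham difference was -0.10 (SE 0.04, adjusted p = 0.176) in U20121_at and 0.11 (unfiltered, SE 0.06, adjusted p = 0.485) in the dim AJ005396_at. Over the 12 tested collagen probe sets, differences ran from -0.10 to 0.28 in LowCORT minus Sham (6 positive), from -0.11 to 0.05 in IntermediateCORT minus LowCORT (4 positive) and from -0.16 to 0.16 in Injected minus IntermediateCORT (11 positive).

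Type I collagen gave different answers by probe set. The probe set M27207mRNA_s_at of Col1a1, the main chain of type I fibres, had a mean of 5.86 and so lay below the filter. It ranged from 5.56 to 6.46 in Injected (median 6.00), from 4.99 to 5.85 in IntermediateCORT (median 5.59), from 5.69 to 6.67 in LowCORT (median 6.06) and from 5.37 to 6.07 in Sham (median 5.77). IntermediateCORT animals were lowest and LowCORT animals highest, with 9 of 9 IntermediateCORT animals below the LowCORT mean and a small overlap of their ranges.

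With no filter, as an alternative, IntermediateCORT minus LowCORT was -0.66 for this probe set (SE 0.13, 95% interval -0.91 to -0.40, 1.58-fold lower, limma adjusted p = 0.00189), where 1.61% of 8740 probe sets were called. It was singled out after its values were seen. In the same unfiltered model LowCORT minus Sham was 0.44 (SE 0.12, adjusted p = 0.0641), Injected minus IntermediateCORT 0.42 (SE 0.13, adjusted p = 0.194) and Injected minus Sham 0.20 (SE 0.12, adjusted p = 0.988). LowCORT minus Sham passed with quantile normalization (0.45, adjusted p = 0.0462), array weights (0.47, adjusted p = 0.0358) and subject position (0.44, adjusted p = 0.0265). It also passed without Sham 7 or 10, LowCORT 21 or 22, or Injected 38 (0.44 to 0.49, adjusted p of 0.0265 to 0.048). Injected minus IntermediateCORT passed with array weights (0.44, adjusted p = 0.0456). Its unfiltered F test gave F = 10.03 (adjusted p = 0.00706), where 1.73% of all were called. No other of the 34 dim member probe sets was called in IntermediateCORT against LowCORT in this model.

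The other 3 probe sets of Col1a1 passed the filter and did not show this difference. IntermediateCORT minus LowCORT was -0.10 for Z78279_g_at (95% interval -0.23 to 0.03), -0.06 for Z78279_at (-0.21 to 0.10) and 0.05 for rc_AI231472_s_at (-0.04 to 0.14), with limma adjusted p of 0.596, 0.858 and 0.73. None of these intervals reaches that of the dim probe set, whose nearest bound was -0.40. Col1a2 had a difference of 0.02 (95% interval -0.15 to 0.18, adjusted p = 0.957). LowCORT 20 stood at 7.22 for Col1a2, with the other LowCORT animals at 6.17 to 6.64. With any single animal left out, the Col1a2 difference ran from -0.02 to 0.10. Col3a1, the chain of type III collagen that is laid down with type I, had 2 probe sets. Its dim probe set X70369_s_at averaged 6.05 ± 0.10 in Injected, 5.95 ± 0.22 in IntermediateCORT, 6.23 ± 0.29 in LowCORT and 5.99 ± 0.08 in Sham (SD), with -0.28 for IntermediateCORT minus LowCORT (unfiltered, SE 0.09, adjusted p = 0.106), while M21354_s_at had -0.04 (SE 0.05, adjusted p = 0.822). The dim Col3a1 probe set passed with array weights (-0.33, adjusted p = 0.00939) and without IntermediateCORT 19 (-0.34, adjusted p = 0.0195) or LowCORT 29 (-0.32, adjusted p = 0.0439). Why probe sets of 1 gene differ was not tested.

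**Figure D2:**
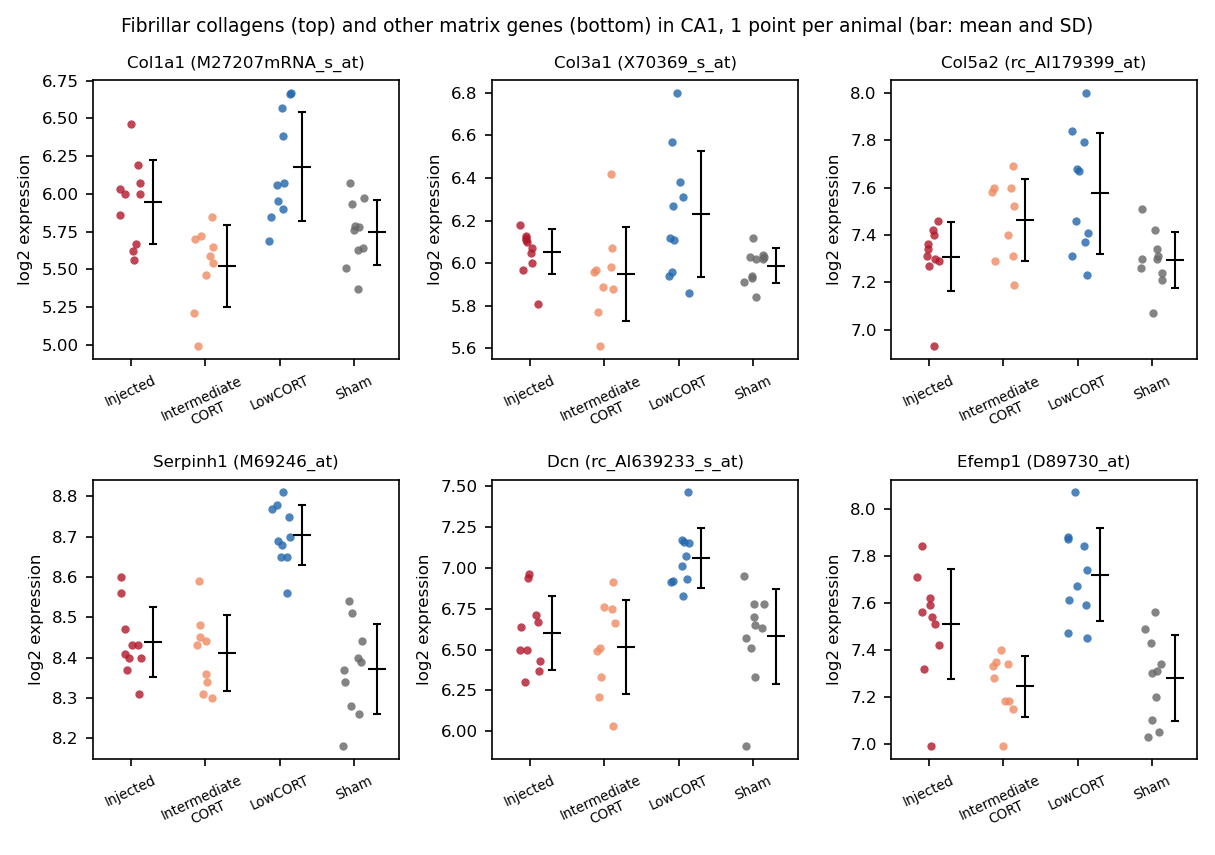
Log2 expression (vertical axis, a scale of its own in each panel) of 3 fibrillar collagen probe sets and 3 probe sets of other matrix genes, 1 point per animal in Injected, IntermediateCORT, LowCORT and Sham, with the group mean and SD beside the points. LowCORT animals sit highest in every panel on average, but only for Serpinh1 are they clear of all Sham animals. The panels show selected probe sets, and others had a different order. LowCORT had the lowest mean for Col1a1 rc_AI231472_s_at (6.61) and for Itih3 (9.01), and Injected the highest for Col3a1 M21354_s_at (6.86).

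**Figure D3:**
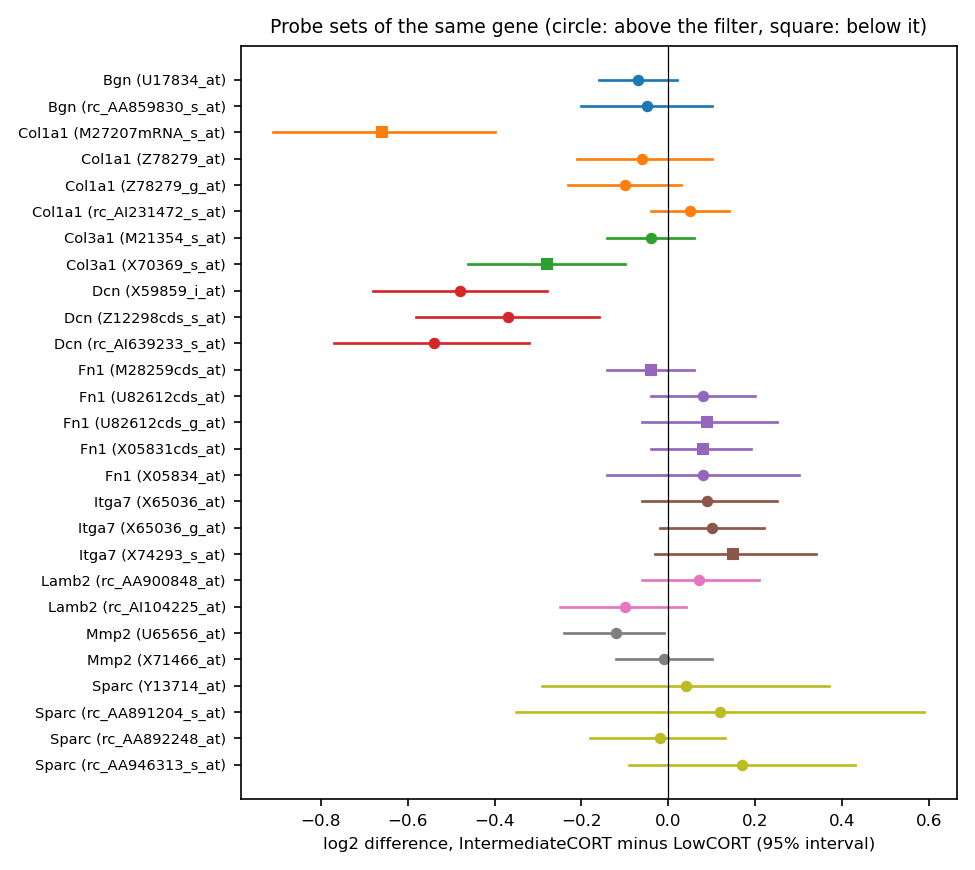
Log2 difference, IntermediateCORT minus LowCORT (horizontal axis, 95% interval), for each probe set of 8 member genes and Dcn, with squares for probe sets below the filter. The dim Col1a1 probe set lies at -0.66 and the other 3 between -0.10 and 0.05, whereas the 3 Dcn probe sets lie together, from -0.54 to -0.37.

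Laminins had 4 of 7 probe sets tested, for Lama5, Lamb2 and Lamc1, and 0 were called in any comparison. Lama5, the alpha chain of laminins in vessel basement membranes, ranged from 7.34 to 7.59 in Injected (median 7.48), from 7.24 to 7.49 in IntermediateCORT (median 7.40), from 7.26 to 7.47 in LowCORT (median 7.33) and from 7.32 to 7.66 in Sham (median 7.43). The ranges overlapped, and LowCORT had the lowest mean. Injected minus LowCORT was 0.13 (SE 0.04, limma adjusted p = 0.352, 9 of 10 animals above the LowCORT mean) and LowCORT minus Sham was -0.12 (SE 0.04, adjusted p = 0.175).

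Lamb2, a beta chain of vessel laminins, differed by probe set. For rc_AI104225_at all 10 Injected animals, at 7.33 to 7.78, lay above the Sham mean of 7.31, although Sham values ranged from 7.06 to 7.61, and the difference was 0.19 (SE 0.07, limma adjusted p = 0.517). For rc_AA900848_at the same difference was -0.02 (SE 0.07, adjusted p = 0.998).

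Integrin alpha subunits had 4 of 11 probe sets tested and integrin beta subunits 5 of 5, and 0 were called. Itga7, a laminin receptor subunit of muscle, ranged in probe set X65036_g_at from 7.92 to 8.22 in Injected (median 8.05), from 7.79 to 8.12 in IntermediateCORT (median 7.98), from 7.72 to 8.12 in LowCORT (median 7.91) and from 7.67 to 8.21 in Sham (median 8.01). All 10 Injected animals were above the LowCORT mean, while the ranges overlapped. Injected minus LowCORT was 0.19 (SE 0.06, limma adjusted p = 0.249) in this probe set and 0.13 (SE 0.07, adjusted p = 0.693) in X65036_at.

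Itgb7, a subunit of leukocyte integrins, had -0.11 for LowCORT minus Sham in 1 probe set (SE 0.05, limma adjusted p = 0.276) and 0.05 in the other (SE 0.04, adjusted p = 0.715). Itgb4, which pairs with the alpha 6 subunit as a laminin receptor, had -0.05 (SE 0.04, adjusted p = 0.676). Itga2b, the platelet integrin, spread over 6.22 to 7.67 in Sham because of 1 animal at 7.67, and its largest difference was 0.15 for Injected minus IntermediateCORT (SE 0.11, adjusted p = 0.586).

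The metalloproteinases held the single call. Mmp14 is a membrane-bound metalloproteinase that cuts type I collagen and activates pro-Mmp2. It ranged from 7.12 to 7.72 in Injected (median 7.43), from 6.93 to 7.18 in IntermediateCORT (median 7.08), from 6.84 to 7.28 in LowCORT (median 7.19) and from 7.10 to 7.64 in Sham (median 7.20). Injected animals were highest and IntermediateCORT animals lowest on average, all 10 Injected animals lay above the IntermediateCORT mean, and the ranges overlapped at their edges. Injected minus IntermediateCORT was 0.33 (SE 0.07, 95% interval 0.18 to 0.48, 1.26-fold higher, limma adjusted p = 0.0368), and the F test gave F = 7.98 (adjusted p = 0.0207).

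The other comparisons of Mmp14 did not pass. Injected minus LowCORT was 0.26 (SE 0.07, limma adjusted p = 0.133), Injected minus Sham 0.13 (SE 0.07, adjusted p = 0.858) and IntermediateCORT minus Sham -0.20 (SE 0.07, adjusted p = 0.874). The call was lost with covariates for RNA or cDNA length (0.30, adjusted p = 0.0681), with only these 2 groups in the model (0.33, adjusted p = 0.143) and when any 1 of 13 animals was left out. Those were IntermediateCORT 11, 12, 13, 14, 16, 17 and 18 and Injected 31, 32, 34, 35, 37 and 38, with differences of 0.29 to 0.34 and adjusted p of 0.0528 to 0.108. Injected 34 had the highest Mmp14 value (7.72), and without it the difference was 0.29 (limma adjusted p = 0.0656). Injected 34 and 35 (7.53 for Mmp14) also lay apart from the rest of their group for probe sets of Sparc, Itih3 and Fn1. The difference of the Gapdh control probe sets (3' minus 5', which grows as RNA or cDNA gets shorter) was 1.03 ± 0.60 in Injected, 0.63 ± 0.21 in IntermediateCORT, 0.81 ± 0.24 in LowCORT and 0.70 ± 0.22 in Sham (SD). For beta-actin it was 0.79 ± 0.69 in Injected, 0.65 ± 0.36 in IntermediateCORT, 0.93 ± 0.40 in LowCORT and 0.68 ± 0.41 in Sham (SD), so LowCORT and not Injected had the highest mean. The 2 tested blood markers averaged 10.47 in Injected (10.01 to 11.19), 9.89 in IntermediateCORT (9.37 to 10.41), 9.99 in LowCORT (8.98 to 10.26) and 9.99 in Sham (9.67 to 10.34). Of these, Alas2 was called higher in Injected against LowCORT, and 0 were called in Injected against IntermediateCORT. The 5 tested probe sets of choroid plexus and ependyma markers averaged 8.17 in Injected (7.81 to 8.76), 7.91 in IntermediateCORT (7.66 to 8.48), 8.14 in LowCORT (7.80 to 8.50) and 8.06 in Sham (7.82 to 8.42), with 0 called in Injected against IntermediateCORT and a median difference of 0.27. The part of blood and of choroid plexus in the Mmp14 difference was not tested.

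**Figure D4:**
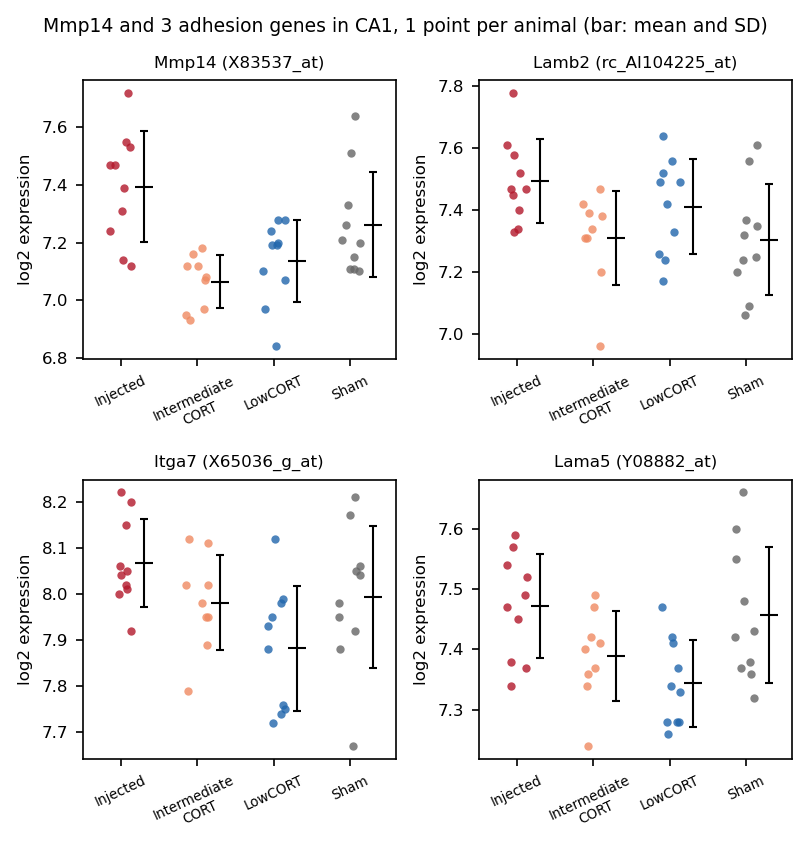
Log2 expression (vertical axis, a scale of its own in each panel) of Mmp14, Lamb2, Itga7 and Lama5, 1 point per animal in Injected, IntermediateCORT, LowCORT and Sham, with the group mean and SD beside the points. All Injected animals lie above the IntermediateCORT mean for Mmp14 (7.07) and for Lamb2 (7.31), and the ranges of the groups overlap in all 4 panels.

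Mmp2, the gelatinase that Mmp14 activates, had 2 tested probe sets. U65656_at ranged from 6.97 to 7.36 in Injected, from 6.92 to 7.22 in IntermediateCORT, from 7.01 to 7.40 in LowCORT and from 6.82 to 7.31 in Sham. LowCORT minus Sham was 0.13 (SE 0.06, limma adjusted p = 0.261) in this probe set and -0.01 (SE 0.05, adjusted p = 0.961) in X71466_at. Mmp9, the other gelatinase, had -0.15 for LowCORT minus Sham (SE 0.06, adjusted p = 0.244), with 9 of 10 LowCORT animals below the Sham mean. Over the 7 tested Mmp probe sets, differences between LowCORT and Sham ran from -0.15 to 0.13. Those between IntermediateCORT and LowCORT ran from -0.12 to 0.08.

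No inhibitor was called. The 4 Timp probe sets, for Timp1, Timp2 and Timp3, had differences of 0.01 to 0.11 in Injected minus IntermediateCORT, the comparison in which Mmp14 was called. Timp2, which takes part in the activation of pro-Mmp2 by Mmp14, averaged 10.26 ± 0.21 in Injected, 10.16 ± 0.11 in IntermediateCORT, 10.24 ± 0.18 in LowCORT and 10.24 ± 0.14 in Sham (SD). Its Injected minus IntermediateCORT difference was 0.11 (SE 0.08, limma adjusted p = 0.605). Timp3, an inhibitor bound to the matrix, had -0.11 for LowCORT minus Sham (SE 0.07, adjusted p = 0.517).

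The Adam family had 6 of 10 probe sets tested and 0 called. Adam17, the sheddase of tumour necrosis factor, averaged 6.88 ± 0.15 in Injected, 6.79 ± 0.13 in IntermediateCORT, 6.83 ± 0.14 in LowCORT and 6.83 ± 0.13 in Sham (SD), with 0.09 for Injected minus IntermediateCORT (SE 0.06, limma adjusted p = 0.618). Adam18, a testis member, had -0.11 for LowCORT minus Sham (SE 0.06, adjusted p = 0.431). Adam10, the alpha-secretase of the amyloid precursor protein, varied more between animals than the rest of its family. Its Injected minus IntermediateCORT difference of -0.20 had a 95% interval of -0.59 to 0.20, so for this gene the interval bounds a fall less tightly than a rise.

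Of the single matrix genes, 10 of 14 probe sets were tested and 0 were called. Neurocan (Ncan), a chondroitin sulphate proteoglycan of perineuronal matrix, averaged 8.10 ± 0.13 in Injected, 8.05 ± 0.09 in IntermediateCORT, 8.07 ± 0.09 in LowCORT and 8.09 ± 0.09 in Sham in probe set AF060879_s_at (SD), a spread of group means smaller than the SD of any group. Biglycan (Bgn), a small leucine-rich proteoglycan like decorin, had a LowCORT minus Sham difference that rounds to 0.00 in both probe sets (SE 0.04 and 0.07). Fibronectin (Fn1), which links integrins to collagen, had 0.22 for Injected minus LowCORT in X05834_at (SE 0.11, limma adjusted p = 0.656) and 0.07 in U82612cds_at (SE 0.06, adjusted p = 0.79). In X05834_at the highest Injected values were those of animals 34 and 35, at 8.96 and 8.87.

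Sparc, a collagen-binding glycoprotein of astrocytes and vessels, had 4 tested probe sets with LowCORT minus Sham differences of 0.04, -0.08, -0.19 and -0.20, and none passed (limma adjusted p of 0.658 to 0.89). The probe set rc_AA891204_s_at ranged from 6.58 to 8.71 in Injected, from 7.51 to 8.64 in IntermediateCORT, from 6.93 to 8.60 in LowCORT and from 6.91 to 8.40 in Sham, the widest spread within groups of any tested member. Versican (Vcan), another large proteoglycan, lay below the filter at 5.79 ± 0.14 in Injected, 5.66 ± 0.11 in IntermediateCORT, 5.78 ± 0.14 in LowCORT and 5.69 ± 0.07 in Sham (SD).

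Calls were also counted among other genes of the matrix. From a list of 93 further matrix genes, 40 were tested in 54 probe sets, and by limma 6 probe sets rose and 1 fell in LowCORT against Sham, where 1.05% of all probe sets rose and 0.637% fell. In IntermediateCORT against LowCORT 2 rose and 7 fell, where 0.637% of all rose and 1.5% fell. Of the 7, Dcn Z12298cds_s_at (-0.37, limma adjusted p = 0.0452) missed the threshold with only the 2 groups (adjusted p = 0.0616), with no filter (adjusted p = 0.0516) and without any 1 of 16 animals. In Injected against LowCORT 0 rose and 2 fell, where 0.147% of all rose and 0.196% fell. IntermediateCORT against Sham, Injected against Sham and Injected against IntermediateCORT called 0, with 4, 7 and 8 probe sets at an unadjusted p under 0.05. In the same order these were 7.41%, 13% and 14.8% of the list, against 4.22%, 5.95% and 11.4% of all. The median difference over the 54 was 0.03 in LowCORT minus Sham (-0.01 over all probe sets tested) and -0.05 in IntermediateCORT minus LowCORT (0.01 over all). The F test called 7 of the 54, against 2.27% of all probe sets tested. This list was chosen with earlier results of these data known, so its counts are not an independent result.

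Serpinh1, the chaperone of newly made collagen in the endoplasmic reticulum, ranged from 8.31 to 8.60 in Injected, from 8.30 to 8.59 in IntermediateCORT, from 8.56 to 8.81 in LowCORT and from 8.18 to 8.54 in Sham. All LowCORT animals lay above all Sham animals. It rose by 0.33 in LowCORT against Sham (SE 0.04, limma adjusted p = 3.52e-06), fell by 0.29 in IntermediateCORT against LowCORT (SE 0.05, adjusted p = 1.09e-04) and fell by 0.27 in Injected against LowCORT (SE 0.04, adjusted p = 5.51e-04). These comparisons share the LowCORT animals.

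Agrn, the basement membrane proteoglycan agrin, rose by 0.47 in LowCORT against Sham in 1 probe set (SE 0.07, limma adjusted p = 1.59e-05) and had 0.39 in the other (SE 0.11, adjusted p = 0.0614). Efemp1, a fibulin of elastic fibres, rose by 0.44 in LowCORT against Sham (SE 0.08, adjusted p = 0.0013) and fell by 0.47 in IntermediateCORT against LowCORT (SE 0.09, adjusted p = 8.21e-04), where the ranges of the groups did not overlap. The remaining called probe sets were those of Dcn, a proteoglycan that binds collagen fibres, Mgp, an inhibitor of calcification, Itih3, which binds hyaluronan, and Ctsk, a protease that cuts collagen. Itih3 differed in the opposite direction to Efemp1, with a mean of 9.01 in LowCORT and 9.65 in Sham. It rose by 0.71 in IntermediateCORT against LowCORT (limma adjusted p = 0.00315). Ctsk rose by 0.29 in IntermediateCORT against LowCORT (SE 0.08, limma adjusted p = 0.026). That call was lost with only the 2 groups in the model (adjusted p = 0.0572) and without any 1 of 6 animals, IntermediateCORT 13, 14 or 16 or LowCORT 27, 28 or 29 (adjusted p of 0.0509 to 0.0739).

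Some markers of other cell types were called in the same comparisons. Of 10 meningeal and fibroblast markers, 8 were on the array and 5 were tested in 10 probe sets, and their mean level was 8.29 in Injected (8.17 to 8.37), 8.19 in IntermediateCORT (8.07 to 8.25), 8.37 in LowCORT (8.29 to 8.49) and 8.23 in Sham (8.15 to 8.34). Dcn itself is on that list and was its only called member, with 3 of the 10 probe sets called lower in IntermediateCORT against LowCORT. The list mean therefore holds Dcn's own values and is not a separate measure. The median difference over the 10 was 0.09 in LowCORT minus Sham and -0.12 in IntermediateCORT minus LowCORT. The 11 tested probe sets of endothelial and pericyte markers had a mean level of 7.31 in Injected (7.20 to 7.40), 7.22 in IntermediateCORT (7.11 to 7.33), 7.34 in LowCORT (7.28 to 7.52) and 7.23 in Sham (7.18 to 7.29). Of these, Slco1a4 was called higher in LowCORT against Sham, and Slco1a4 and Kcnj8 were called lower in IntermediateCORT against LowCORT. The median difference over the 11 probe sets was 0.03 in LowCORT minus Sham and -0.01 in IntermediateCORT minus LowCORT.

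Enpp2 was the only gene called on the list for choroid plexus and ependyma. It was called higher in 1 of the 5 probe sets of that list in LowCORT against Sham, and lower in 2 in IntermediateCORT against LowCORT. Microglia and macrophage markers, tested in 15 probe sets, had a mean level of 7.49 in Injected (7.26 to 7.82), 7.51 in IntermediateCORT (7.37 to 7.67), 7.59 in LowCORT (7.38 to 7.91) and 7.44 in Sham (7.30 to 7.58). Aif1 and Fcgr2b were called higher in LowCORT against Sham, Cd53, Aif1 and Fcgr2b lower in IntermediateCORT against LowCORT, and Fcgr2b lower in Injected against LowCORT. Astrocyte markers, tested in 12 probe sets, averaged 8.97 in Injected, 9.11 in IntermediateCORT, 8.93 in LowCORT and 9.15 in Sham, with 0 called. Their median difference was -0.16 in LowCORT minus Sham and 0.08 in IntermediateCORT minus LowCORT. Among 11 probe sets of oligodendrocyte and myelin markers, 1 of Cnp was called lower in IntermediateCORT against LowCORT. The part of these cell types in the values of Col1a1, Col5a2, Serpinh1 and Dcn was not tested.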

How the data were processed

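CA1 tissue blocks of 39 rats were measured on 39 Affymetrix arrays. The authors deposited a table of log2 expression values for 8799 probe sets, 59 of them controls. The submitters' processing notes name MAS5, RMA and R 2.7.1, giving no role to any. The tool that made the values, and any batch, are not given in the sources used here. No further normalization was applied. Groups came from the labels. Genes were named from the platform table, and all 86 members matched RefSeq.

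Group differences came from limma 3.58.1 (R 4.3.3), fitted over 6118 probe sets at or above the 30th percentile of the mean, with 4 group means, 35 residual degrees of freedom and Benjamini-Hochberg adjustment. The code was tested on simulated data. Named genes were each called member, the 2 genes of each family with the smallest F test p, the single matrix genes, the called genes of the other matrix list, and Sgk1. Adam10, Col5a1, the type I and III collagens and the dim probe sets fall outside this rule and were chosen after their values were seen. Members and lists were chosen with earlier results of these data known. Alternatives were quantile normalization, an intensity trend, array weights, no filter, a 50th percentile filter, covariates, only the 2 groups compared, and leaving out each array. The arrays hold no read depth, and their number limits the precision.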

Additional observations from a re-analysis of the deposited data

Results flagged for a closer look

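In 160 pairs of a group and a named probe set, 13 had 1 animal apart from its group by Dixon's 95% criterion, which chance gives in about 1 of 20. In Injected these were Mmp2 U65656_at at 7.36 in animal 34 (next value 7.17), Mmp9 at 7.19 in animal 33 (6.95), Itgb7 S44606_s_at at 6.93 in animal 31 (7.05) and Col5a2 at 6.93 in animal 37 (7.27). In IntermediateCORT they were Lamb2 rc_AA900848_at at 6.86 in animal 19 (7.07) and Sparc rc_AA892248_at at 12.70 in animal 14 (12.93). In LowCORT they were Mmp2 X71466_at at 7.61 in animal 21 (7.77) and Col11a1 at 6.53 in animal 27 (6.42). LowCORT animal 20 stood apart for 3 of these probe sets, with Bgn rc_AA859830_s_at at 7.55 (7.33), Sparc rc_AA946313_s_at at 8.56 (9.23) and Dcn X59859_i_at at 9.86 (9.33). Col1a2, which was not among the pairs examined, was at 7.22 in the same animal, with the next LowCORT value at 6.64. In Sham they were Itga2b at 7.67 in animal 5 (6.66) and Itih3 at 8.83 in animal 6 (9.57). The criterion looks for 1 animal apart and can miss animals that stand apart together. Injected 34 and 35 were the lowest of their group for Sparc rc_AA891204_s_at (6.58 and 6.95) and Itih3 (8.70 and 8.71). They were the highest for Fn1 X05834_at (8.96 and 8.87). Sham 6 was likewise lowest in its group for that Sparc probe set (6.91) and for Itih3, and highest for Fn1 X05834_at (8.71).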

How the results depend on the processing

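No paired analysis was possible because each subject number belongs to 1 animal and the groups share none. The F test called 1 member, 2 with array weights, with subject position as a covariate or with no filter, and 0 at the 50th percentile filter, where Mmp14 was not tested. LowCORT against Sham gave 0 member calls, and 1 with array weights, with Gapdh and beta-actin 3' to 5' covariates or with subject position. IntermediateCORT against LowCORT gave 0, and 1 with no filter. Injected against IntermediateCORT gave 1, and 0 with the 3' to 5' covariates, with only the 2 groups, or at the 50th percentile. The other matrix genes had 2 calls in Injected against LowCORT, 4 with array weights and 1 at the 50th percentile, and 0 in Injected against IntermediateCORT, 1 with array weights. The causes were not tested, except that fewer probe sets are tested under the stricter filter and more without one.

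Leaving out 1 animal gave 1 to 2 member calls by the F test (2 without LowCORT 26), 0 to 1 in LowCORT against Sham, 0 to 1 in Injected against IntermediateCORT, and 0 to 0 in the other 4 comparisons. For other matrix genes it gave 7 to 8 by the F test, 7 to 8 in LowCORT against Sham, 7 to 9 in IntermediateCORT against LowCORT, 1 to 3 in Injected against LowCORT and 0 to 0 in the other 3. The 1 call in Injected against LowCORT came without LowCORT 20, 21, 22, 23, 24, 25 or 28, or Injected 30, 31, 32, 33, 37 or 39.

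Signs turned for values near 0. Mmp2 X71466_at in Injected minus IntermediateCORT was 0.00 with array weights, Sparc rc_AA892248_at in LowCORT minus Sham was -0.01 with the 3' to 5' covariates, and Col1a2 in IntermediateCORT minus LowCORT was 0.00, -0.02 and -0.01 without LowCORT 21, 22 and 23, in a range of -0.02 to 0.10 over all animals left out. Ctsk in IntermediateCORT minus LowCORT missed the threshold with only the 2 groups (0.29, limma adjusted p = 0.0572) and without any 1 of 6 animals. Dcn Z12298cds_s_at in the same comparison missed it with only the 2 groups (-0.37, adjusted p = 0.0616), with no filter (-0.37, adjusted p = 0.0516) and without any 1 of 16 animals (adjusted p up to 0.116). Over 50 single results and 2321 alternatives, 2255 kept sign and side of the threshold. The dim Col1a1 probe set stayed called in IntermediateCORT against LowCORT under each alternative run.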
